A study of Homo sapiens with 6 samples.

Results

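The KLF and FOXO factors are a group of 10 transcription factors, some of which are known from resting cells: KLF2, KLF4, KLF6, KLF9, KLF10, KLF12, KLF13, FOXO1, FOXO3 and FOXP1. They were taken by gene symbol from an expression array of P493-6 cells, where the human probe sets with 1 symbol covered 18244 genes. For each gene the brightest probe set by mean log2 intensity over the 6 arrays was used, and its other probe sets served as a check. All 10 were on the array, and 9 were among the 12198 genes above a filter on dim probe sets (mean intensity 33.8). KLF4 was below it.

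P493-6 is a human B cell line, given in the labels as a B-cell lymphoma, that carries a c-Myc transgene under tetracycline repression. All 3 groups carry this transgene and had it repressed before release: low-Myc cells were released for 0 hours, mid-Myc cells for 1 hour and high-Myc cells for 24 hours. Each group has 2 arrays, called biological duplicates in the design text, so the values describe a single engineered line and its own transgene. For the mid-Myc samples the growth field of the labels gives 0 hours and the treatment field 1 hour, which is used here. The mid-Myc arrays have sample numbers apart from the other groups and no batch is given, so batch and the 1-hour release cannot be told apart.

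KLF proteins are zinc finger factors that bind GC-rich and CACC-type sequences, and several of them recruit co-repressors to hold growth genes low. FOXO proteins are forkhead factors: when growth signals are weak they stay in the nucleus and turn on genes of cell cycle arrest, cell death and stress resistance, and when AKT phosphorylates them they are bound by 14-3-3 proteins and exported. In lymphocytes of the mouse, KLF2 and FOXO1 keep resting cells quiescent and sustain genes for homing and exit from lymphoid tissue, and FOXP1 is needed for B cell development. The comparisons ask what becomes of the transcripts of these factors when c-Myc is switched on.

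The promoters of KLF6, KLF9 and KLF2 are shown as examples of different courses in share of the RNA: higher at 1 hour and lower at 24 hours with the largest late fall of the factors (KLF6), the largest early rise (KLF9), and a late fall without an early rise (KLF2). Each window runs from 250 bases before to 50 bases after the RefSeq start on GRCh38.p14, 5′ to 3′ on the gene's strand. Capitals mark matches, on either strand, to an E-box (CACGTG, the sequence that MYC and MAX bind) or a GC box (GGGCGG, a KLF and SP type sequence). The other motifs searched were a cAMP response element (TGACGTCA), a forkhead motif (GTAAACA) and a KLF CACC box (CCACACCC), which had no match in these 3 windows, and GC boxes can overlap each other.
KLF6 promoter, chr10:3785160-3785459, minus strand: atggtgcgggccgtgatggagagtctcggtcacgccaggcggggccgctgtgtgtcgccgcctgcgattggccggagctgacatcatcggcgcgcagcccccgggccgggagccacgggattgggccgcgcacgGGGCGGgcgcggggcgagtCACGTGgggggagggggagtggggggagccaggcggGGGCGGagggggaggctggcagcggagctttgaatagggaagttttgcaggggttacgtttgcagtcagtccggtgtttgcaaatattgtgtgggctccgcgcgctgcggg
KLF9 promoter, chr9:70414608-70414907, minus strand: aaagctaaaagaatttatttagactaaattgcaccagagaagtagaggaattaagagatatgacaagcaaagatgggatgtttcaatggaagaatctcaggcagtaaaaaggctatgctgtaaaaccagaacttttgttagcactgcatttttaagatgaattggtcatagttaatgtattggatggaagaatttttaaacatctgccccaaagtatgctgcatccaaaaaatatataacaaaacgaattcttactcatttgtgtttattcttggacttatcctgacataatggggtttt
KLF2 promoter, chr19:16324576-16324875, plus strand: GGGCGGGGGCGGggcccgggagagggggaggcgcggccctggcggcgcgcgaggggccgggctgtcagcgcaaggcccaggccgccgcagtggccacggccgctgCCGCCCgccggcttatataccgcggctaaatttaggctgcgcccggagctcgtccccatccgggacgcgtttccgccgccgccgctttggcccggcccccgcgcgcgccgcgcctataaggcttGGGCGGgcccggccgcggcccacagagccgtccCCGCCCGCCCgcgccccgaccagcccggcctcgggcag

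The KLF6 window holds 1 E-box, which begins 97 bases before the start, and 2 GC boxes, and 70.7% of its bases are G or C. The KLF2 window holds 6 GC boxes at 80.7% G or C. The KLF9 window holds none of the 5 motifs at 32.7% G or C. Over all 35116 promoter windows of this length, 7.26% hold an E-box and 45% a GC box, the median G or C share is 58.7%, and the cAMP response element, the forkhead motif and the CACC box occur in 1.85%, 3.42% and 3.28%. RefSeq windows were given for 9 of the 10 factors, 20 windows in all. Among the rest, KLF4 has 1 E-box and FOXP1 has a CACC box in 1 of its windows and a forkhead motif in another. A match is a description of the letters and not a site in these cells.

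Values are deposited intensities on a linear scale, and changes are in log2. Changes are given on 2 scales, since the deposited ERCC synthetic RNAs, which had been added by cell number, were not level: the middle range of them had a median change of -1.30 log2 between high-Myc and low-Myc arrays. The per-cell scale subtracts a curve through the ERCC probe sets and so follows RNA per cell. The equal-median scale sets the median human probe set of every array equal and so follows a gene's share of the RNA. On the per-cell scale the median gene changed by 0.97 at 24 hours and 0.30 at 1 hour against low-Myc cells, and on the equal-median scale by 0.054 and 0.091. Other equal-median style scalings put that 24-hour median of all genes between -0.15 and -0.0064, and equal-median changes at 24 hours are to be read relative to it. Adjusted p-values are from limma with Benjamini-Hochberg adjustment over all 12198 genes, two-sided, with a threshold of 0.05. Duplicate arrays correlated at 0.996 over genes in every group, and MYC itself had 10472 and 10279 in low-Myc cells, 10031 and 9941 in mid-Myc cells, and 11888 and 11979 in high-Myc cells. MYC rose in high-Myc cells on both scales (0.96 per cell and 0.34 equal-median, against low-Myc cells), and by 0.13 and 0.095 in mid-Myc against low-Myc arrays (adjusted p = 0.00282 and 0.0339), although the deposited mid-Myc values lay below those of low-Myc arrays. With all tested genes put in order of change, MYC at 24 hours stood at percentile 49.4 for per-cell values and 68.7 for equal-median values. At 1 hour its percentiles were 22.2 and 50.8, so the 1-hour values do not show MYC rising more than a typical gene. The per-cell value at 24 hours, 0.96 beside a median of 0.97, does not show it either. Whether this probe set reads the transgene, the endogenous gene or both is not stated in the files.

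The cell type in the labels was checked with marker lists. Of 9 B cell markers on the array 8 were above the filter, and their summed intensity was 25418 to 25669 in low-Myc, 26340 to 27207 in mid-Myc and 16531 to 16705 in high-Myc arrays. For T and NK cells, 7 of 10 markers were above the filter, with sums of 443.3 to 477.2, 401.5 to 428.8 and 328.6 to 341.9 in the same order, and CD3D, CD8A and KLRD1 were below it. Of 6 monocyte markers 4 were above the filter, with sums of 2689.5 to 2737, 2562 to 2636 and 955 to 994, carried by LYZ and MS4A7, while CD14 and FCGR1A were below it. No marker was listed at 0. The ratio of the 3′ to the 5′ control probe set of ACTB, a sign of RNA quality, was 2.81 ± 0.0698, 2.97 ± 0.124 and 3.56 ± 0.159 in low-, mid- and high-Myc arrays (SD, n = 2 each), and that of GAPDH was 1.17 ± 0.0642, 1.23 ± 0.00105 and 1.18 ± 0.0351. In share of the RNA 7 of the 8 B cell markers fell and 1 rose in high-Myc against low-Myc cells (median -0.69). Of the T and NK cell markers 1 of 7 fell (CD3G, dim at 61.7 or less in every array), and of the monocyte markers 3 of 4. On the same equal-median scale 26% of all tested genes were lower and 37.7% higher. The B cell and monocyte sums and the ACTB ratio moved with the late comparison, and their part in it was not tested.

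**Figure D1:**
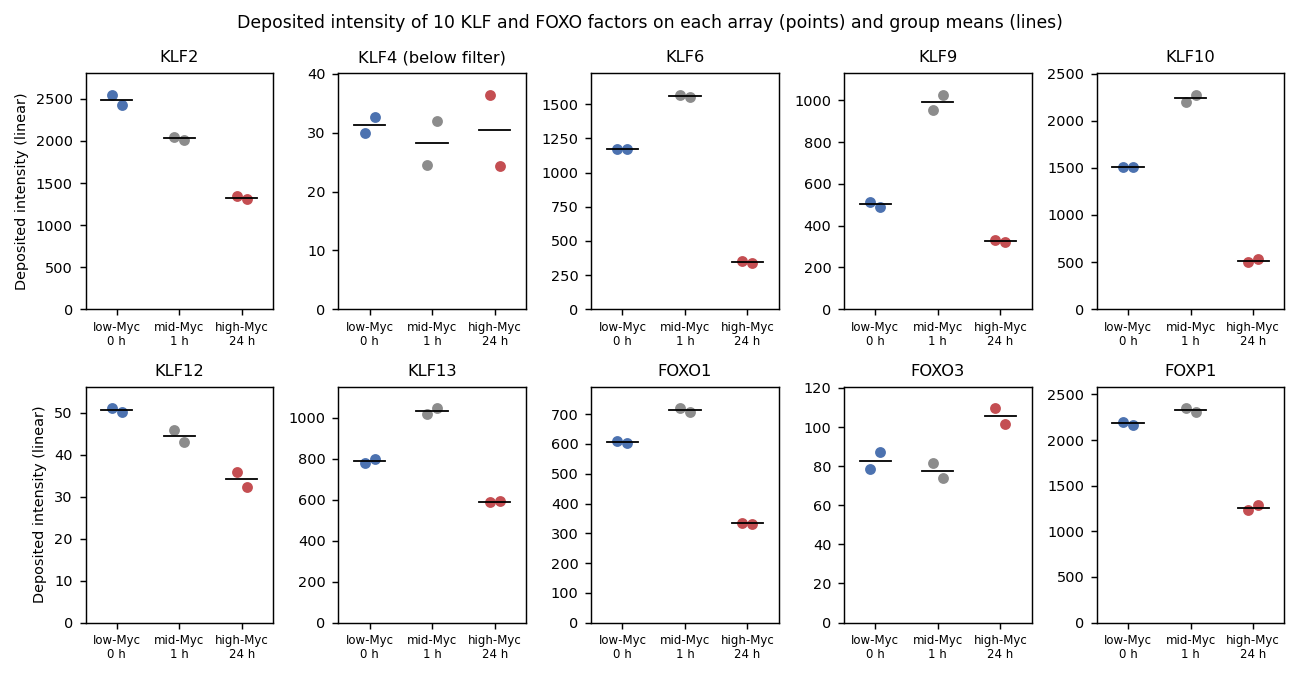
Deposited linear intensity (y axis, a scale of its own in each panel, from 0) of the 10 KLF and FOXO factors in low-Myc (0 h), mid-Myc (1 h) and high-Myc (24 h) cells (x axis). Points are arrays, 2 a group, and lines are group means. KLF6, KLF9, KLF10, KLF13, FOXO1 and FOXP1 peak in mid-Myc arrays and are lowest in high-Myc arrays, KLF2 and KLF12 step down, and FOXO3 is highest in high-Myc arrays.

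After 24 hours of c-Myc release most of these factors took a smaller share of the RNA. Per cell, by the probe sets used, only KLF6 and KLF10 fell. On the equal-median scale 8 of the 9 tested factors were lower and 1, FOXO3, was higher in high-Myc cells, set against low-Myc cells, where 26% of all tested genes were lower and 37.7% higher. The factors and the gene lists were chosen with earlier results of these data known, so such counts are descriptions and not tests. The median of the 9 was -0.66, beside 0.054 for all genes. The high-Myc and low-Myc arrays did not overlap for 9 of the 9, beside 79.9% of all genes. Under 4 other settings (quantile normalization, cyclic loess, centring on the tested genes, and the deposited values) 8 were again lower and 1 higher, where 30.9% to 40.4% of all genes were lower and 28.7% to 33.2% higher. On the per-cell scale 6 of the 9 were higher and 2 lower, beside 90.8% and 2.53% of all genes, and the median of the factors was 0.29 beside 0.97. Of the 6 higher per cell, only FOXO3 also rose in the deposited values. For the others, deposited changes ran from -0.90 (KLF2) to -0.42 (KLF13), and the ERCC curve at their levels changed by -1.29 to -1.09. Their per-cell rises thus come from the curve. The intensities are of whole cultures, in which fewer cells that carry a transcript and less of it per cell cannot be told apart.

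At 1 hour the direction was the other one for most of them. On the equal-median scale 6 of the 9 were higher in mid-Myc than in low-Myc cells (KLF6, KLF9, KLF10, KLF13, FOXO1 and FOXP1) and 1, KLF2, was lower, where 25.7% of all genes were higher and 3.39% lower. The factors had a median change of 0.39 beside 0.091 for all genes, and the mid-Myc and low-Myc arrays did not overlap for 7 of them, beside 64.4% of all genes. Under the 4 other settings 5 or 6 factors were higher and 1 lower, where 7.83% to 12.5% of all genes were higher and 8.48% to 12.2% lower. Per cell 7 were higher and 0 lower, beside 62.4% and 0.697%, and the medians were 0.62 and 0.30. Between the releases, 8 of the 9 were lower and 1 higher in high-Myc than in mid-Myc cells on the equal-median scale, beside 30.9% and 33.3% of all genes. Per cell 5 were lower and 2 higher, beside 6.57% and 81.7%. The smallest of the 5 changes, that of FOXP1 (-0.11), is not firm, as given below.

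**Figure D2:**
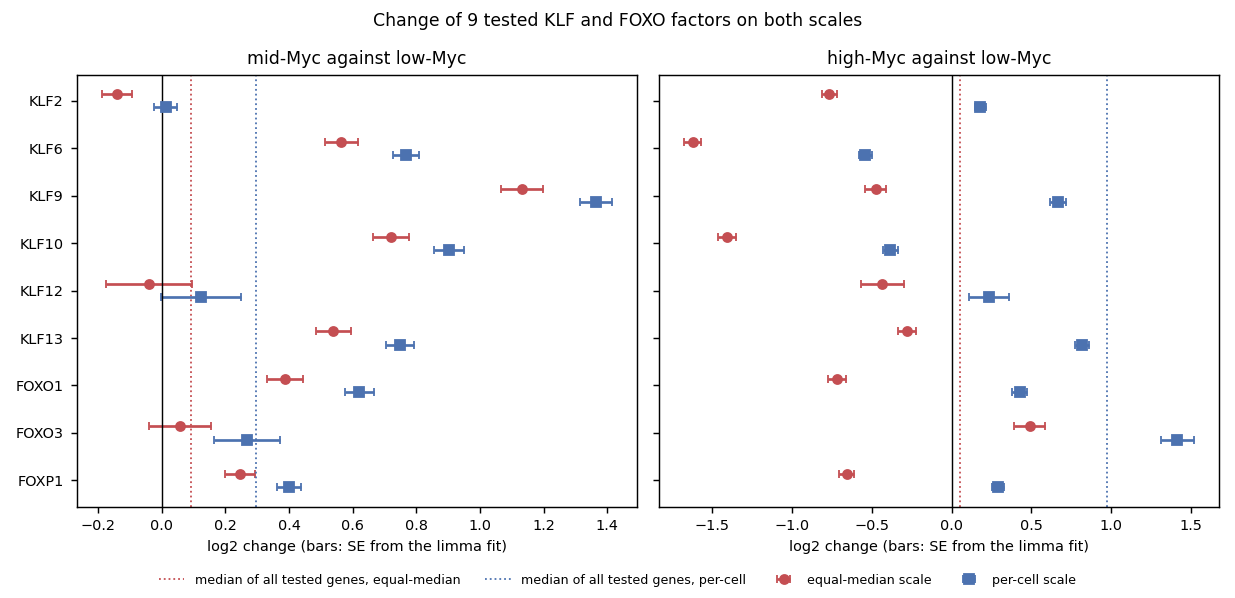
Log2 change (x axis) of each of the 9 tested factors (y axis) in mid-Myc against low-Myc cells (left) and high-Myc against low-Myc cells (right). Circles are the equal-median scale, squares the per-cell scale, bars the SE of the limma fit over 6 arrays, and dotted lines the median of all 12198 tested genes on each scale. At 24 hours every factor except FOXO3 lies left of the line of its scale.

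KLF6 and KLF10 were the factors with the largest late falls. KLF6 is a zinc finger factor studied as a growth suppressor, and KLF10, also known as TIEG1, is an early response gene of TGF-beta. KLF6 had intensities of 1174 and 1169 in low-Myc cells, 1569.8 and 1553 in mid-Myc cells, and 351 and 339.9 in high-Myc cells. Its arrays were highest at 1 hour and lowest at 24 hours, and no 2 groups overlapped. On the equal-median scale KLF6 changed by -1.62 (SE 0.052, adjusted p = 1.01e-11) in high-Myc against low-Myc cells, which is 3.08-fold lower, and only 109 of the 12198 genes had a lower value. At 1 hour it changed by 0.56 (SE 0.052, adjusted p = 8.2e-06) against low-Myc cells, and it was 4.56-fold lower in high-Myc than in mid-Myc cells. Per cell the changes were -0.54 (SE 0.041, adjusted p = 5.42e-07) at 24 hours and 0.77 at 1 hour (adjusted p = 1.87e-06), each against low-Myc cells.

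KLF10 had 1508 and 1508 in low-Myc cells, 2202 and 2276 in mid-Myc cells, and 498 and 535 in high-Myc cells. The 3 groups stood apart in the same order as for KLF6. It changed by -1.41 (SE 0.056, adjusted p = 7.5e-11) in high-Myc against low-Myc cells on the equal-median scale, 2.65-fold lower, by 0.72 (SE 0.056, adjusted p = 1.74e-06) in mid-Myc against low-Myc cells, and was 4.37-fold lower in high-Myc than in mid-Myc cells. Per cell it changed by -0.38 (SE 0.047, adjusted p = 2.49e-05) at 24 hours and 0.90 at 1 hour (adjusted p = 1.73e-06). The 12 ERCC probe sets within 1 log2 of KLF10 themselves changed by -0.32 to -0.11 per cell in high-Myc against low-Myc arrays, since the curve runs above them at this brightness. With a single ERCC factor per array, KLF6 changed by -0.41 and KLF10 by -0.20 in high-Myc against low-Myc cells, with adjusted p of 5.95e-06 and 0.0041.

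KLF9 and KLF13 rose at 1 hour and fell below low-Myc cells in share, but not per cell, at 24 hours. KLF9 is a hormone-responsive factor, known as a target of glucocorticoid and thyroid hormone receptors, and KLF13 is known in T cells as a regulator of the chemokine CCL5. KLF9 had 513 and 489.8 in low-Myc cells, 955 and 1027 in mid-Myc cells, and 333 and 322 in high-Myc cells. Its mid-Myc arrays were highest, with the largest early change of the 9 factors, and its high-Myc arrays were lowest. In mid-Myc against low-Myc cells it changed by 1.13 (SE 0.065, adjusted p = 1.29e-07) on the equal-median scale, 2.19-fold higher, and 31 of the 12198 genes had a higher value. Per cell that change was 1.36 (SE 0.05, adjusted p = 3.13e-07). At 24 hours KLF9 changed by -0.48 (SE 0.065, adjusted p = 1.78e-05) on the equal-median scale and by 0.67 (SE 0.05, adjusted p = 5.18e-07) per cell against low-Myc cells. It was lower in high-Myc than in mid-Myc cells on both scales, with log2 changes of -1.61 (equal-median) and -0.69 (per cell).

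KLF13 had 778 and 799.9 in low-Myc cells, 1019 and 1048 in mid-Myc cells, and 591 and 591 in high-Myc cells. All 3 groups were apart. It changed on the equal-median scale by 0.54 (SE 0.055, adjusted p = 1.81e-05) at 1 hour and by -0.28 (SE 0.055, adjusted p = 0.000491) at 24 hours against low-Myc cells. Per cell it was 0.75 log2 higher at 1 hour (adjusted p = 3.6e-06) and 0.82 higher at 24 hours (adjusted p = 4.4e-08), and high-Myc against mid-Myc cells gave 0.069 with an adjusted p of 0.168.

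KLF2, the quiescence factor of lymphocytes, had no early rise in share of the RNA. Its intensities were 2550.4 and 2424 in low-Myc cells, 2051 and 2013 in mid-Myc cells, and 1349 and 1307 in high-Myc cells. The values stepped down with time of release and the groups did not overlap. Scaled to equal medians, KLF2 changed by -0.77 (SE 0.047, adjusted p = 4.64e-09) at 24 hours, 1.70-fold lower, and by -0.14 (SE 0.047, adjusted p = 0.0372) at 1 hour, in each case against low-Myc cells. The 1-hour call is close to the threshold, and it is lost without low-Myc replicate 1, mid-Myc replicate 1 or mid-Myc replicate 2. Per cell KLF2 changed by 0.18 (SE 0.037, adjusted p = 0.00101) at 24 hours, and at 1 hour its value was 0.012 (adjusted p = 0.798) with overlapping arrays. That early per-cell value was called higher under 3 alternatives: 0.13 with a single ERCC factor per array (adjusted p = 0.0164), 0.13 with the mean over probe sets (adjusted p = 0.00651) and 0.26 with the other KLF2 probe set (adjusted p = 0.00124). The 9 ERCC probe sets within 1 log2 of KLF2 changed by -0.32 to -0.15 per cell in high-Myc against low-Myc arrays. With a single ERCC factor per array the 24-hour change of KLF2 was 0.45 (adjusted p = 9.31e-07).

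KLF12 and KLF4 were dim. KLF12, a repressor first described at the gene of the factor AP-2 alpha, had 51.2 and 50.3 in low-Myc cells, 46.0 and 43.0 in mid-Myc cells, and 36.0 and 32.3 in high-Myc cells. The deposited values stepped down with time, with the high-Myc arrays lowest. On the equal-median scale it was lower in high-Myc cells than at 0 hours, -0.43 (SE 0.14, adjusted p = 0.0127), a call lost without low-Myc replicate 1 (adjusted p = 0.0631) or high-Myc replicate 2 (adjusted p = 0.074). It was not called at 1 hour (-0.04, adjusted p = 0.863), nor per cell at either time (0.23 at 24 hours, adjusted p = 0.0999, and 0.12 at 1 hour, adjusted p = 0.422). Per cell at 24 hours the other KLF12 probe set above the filter was called lower (-0.33, adjusted p = 0.0341). With a single ERCC factor per array KLF12 was called higher there (0.78, adjusted p = 0.000145), so its per-cell direction is not settled. KLF4, the reprogramming factor that restrains cell division in B cells of the mouse, had 30.0 and 32.7 in low-Myc cells, 24.5 and 32.0 in mid-Myc cells, and 36.5 and 24.4 in high-Myc cells. Its groups overlapped, and it was not tested. Of 23 background probe sets on these arrays all but the brightest stayed at or below an intensity of 204.5, so the levels of KLF4, KLF12 and FOXO3 lie within the range of background, while the mean change of those background probe sets as deposited was 0.013 ± 0.094 in high-Myc against low-Myc arrays (SD over 23 probe sets).

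The forkhead factors split. FOXO1, the main FOXO protein of B cells, had 609 and 602 in low-Myc cells, 721 and 707 in mid-Myc cells, and 335 and 333 in high-Myc cells. The mid-Myc arrays were highest, the high-Myc arrays lowest, and no groups overlapped. In share of the RNA (equal-median scale) FOXO1 changed by -0.72 (SE 0.058, adjusted p = 7.41e-08) at 24 hours and 0.39 (SE 0.058, adjusted p = 0.000295) at 1 hour against low-Myc cells. Per cell it was higher at both times, by 0.43 (adjusted p = 8.68e-06) and 0.62 (adjusted p = 9.22e-06), and lower in high-Myc than in mid-Myc cells (-0.19, adjusted p = 0.00278). The 24-hour per-cell call rests on the brightest probe set: the other FOXO1 probe sets above the filter gave 0.062 (adjusted p = 0.313) and 0.01 (adjusted p = 0.931), and the mean over probe sets gave 0.14, just inside the threshold (adjusted p = 0.05).

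FOXP1, a forkhead repressor of a separate subfamily, had 2195 and 2167 in low-Myc cells, 2351 and 2311 in mid-Myc cells, and 1229 and 1284 in high-Myc cells. High-Myc arrays were well below both other groups, which lay close together without overlap. FOXP1 changed by -0.66 (SE 0.047, adjusted p = 2.35e-08) on the equal-median scale at 24 hours and 0.25 (SE 0.047, adjusted p = 0.00166) at 1 hour against low-Myc cells. That early call was lost under 3 of the 4 other scalings and held with centring on the tested genes: the change was 0.0039 after quantile normalization, 0.048 after cyclic loess, 0.096 in the deposited values and 0.13 with centring. Per cell FOXP1 changed by 0.29 at 24 hours (adjusted p = 4.1e-05) and 0.40 at 1 hour (adjusted p = 2.56e-05). With a single ERCC factor per array the 24-hour value was 0.55. In high-Myc against mid-Myc cells FOXP1 changed by -0.11 per cell (adjusted p = 0.0231). The 9 ERCC probe sets within 1 log2 of FOXP1 changed by -0.24 to 0.023 there. That call was lost under 5 of 14 alternatives, and the direction changed under 1 more.

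FOXO3, which shares most of its target genes with FOXO1, went the other way. It had 78.4 and 87.4 in low-Myc cells, 81.4 and 73.9 in mid-Myc cells, and 109.8 and 101 in high-Myc cells. Both high-Myc arrays were above all others, and the low-Myc and mid-Myc arrays overlapped. FOXO3 changed on the equal-median scale by 0.49 (SE 0.098, adjusted p = 0.000548) in high-Myc against low-Myc cells. The other probe set of FOXO3 alone above the filter gave 0.21 there and was not called (adjusted p = 0.156). Per cell the value was 1.42 (SE 0.10, adjusted p = 4.15e-07), but the change in the deposited values was 0.35 and the ERCC curve at this level changed by -1.07, so most of the per-cell value is the curve. Since the intensities lie within the range of background, it is no measure of FOXO3 per cell. At 1 hour its change was 0.056 (adjusted p = 0.711) on the equal-median scale and 0.27 (SE 0.10, adjusted p = 0.0463) per cell, and this per-cell call was lost under 10 of 14 alternatives. The probe set used is of a type that can bind similar sequences of other genes. The annotation assigns 5 further sets to FOXO3 and its near-identical copy FOXO3B, which the rule leaves out. The brightest of them had 132 and 129 in low-Myc cells, 134 and 132 in mid-Myc cells, and 158 and 162 in high-Myc cells, highest in high-Myc arrays. The dimmer ones were less clear, and in a set with 38.2 and 40.9 in low-Myc cells, 37.6 and 39.7 in mid-Myc cells, and 35.5 and 41.6 in high-Myc cells the groups overlapped.

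Ratios of deposited values within an array are not moved by a single factor per array, but the ERCC curve of the per-cell scale, which depends on intensity, does move them. On the scale of log2 ratios centred on the low-Myc mean, KLF6 over KLF2 was -0.034 and 0.034 in low-Myc arrays, 0.70 and 0.71 in mid-Myc arrays, and -0.86 and -0.86 in high-Myc arrays. KLF9 over KLF2 differed by 1.27 at 1 hour and 0.29 at 24 hours, and KLF10 over KLF2 by 0.86 and -0.64, each against low-Myc arrays. The ratios of KLF6 and KLF10 to KLF2 thus changed sign between the times. An exact two-sided permutation test of 2 arrays against 2 gave p = 0.333 for each, the smallest p it can give.

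**Figure D3:**
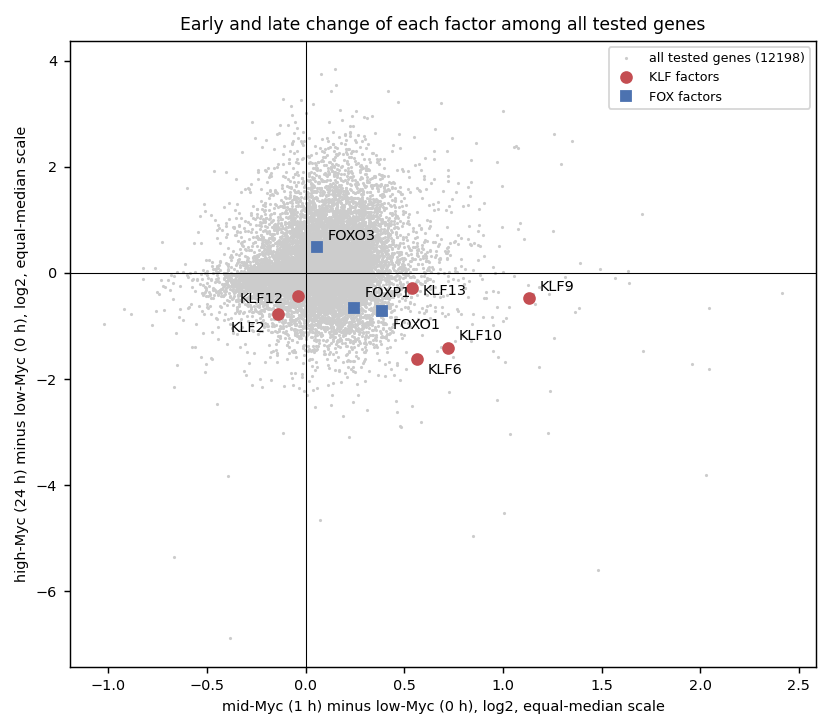
Equal-median log2 change in mid-Myc against low-Myc cells (x axis) and in high-Myc against low-Myc cells (y axis). Grey points are all 12198 tested genes, circles the 6 tested KLF factors and squares the 3 FOX factors. Both axes share the low-Myc arrays. KLF6 (0.56, -1.62), KLF10 (0.72, -1.41) and KLF9 (1.13, -0.48) lie at the edge of the cloud in the lower right part, and FOXO3 lies alone above 0 on the y axis.

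Among all tested genes ordered by their equal-median change in high-Myc against low-Myc cells, KLF6 stood at percentile 0.898, KLF10 at 1.42, KLF2 at 7.57, FOXO1 at 8.41, FOXP1 at 9.79, KLF9 at 15.0, KLF12 at 16.5, KLF13 at 23.8 and FOXO3 at 74.7. KLF6 and KLF10 were near the bottom of this order, and FOXO3 was the only factor in its upper part. For mid-Myc against low-Myc cells KLF9 stood at percentile 99.7, KLF10 at 98.9, KLF6 at 97.7, KLF13 at 97.5, FOXO1 at 93.3 and FOXP1 at 79.2, and FOXO3, KLF12 and KLF2 at 43.5, 26.5 and 13.9. The 2 comparisons share the low-Myc arrays.

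Other probe sets of the same genes gave a check of the late change. The 10 factors had 42 probe sets with 1 gene in all, and 21 besides the ones used were above the filter. On the equal-median scale all 21 had the sign of the one used in high-Myc against low-Myc cells, and 17 of 21 did in mid-Myc against low-Myc cells. Per cell the counts were 20 and 19. In high-Myc against mid-Myc cells all 21 had the same sign on the equal-median scale, but only 13 of 21 per cell. Of the 10 other FOXP1 probe sets 4 had it there. A further, dim probe set of KLF6 had 70.3 and 67.4 in low-Myc cells, 44.7 and 41.7 in mid-Myc cells, and 33.0 and 40.7 in high-Myc cells, and fell at 1 hour by 0.52 log2 on the equal-median scale (adjusted p = 0.0129) where the bright set rose. The other KLF9 probe set above the filter changed by 0.55 at 1 hour, against 1.13 for the one used. The mean over all KLF9 probe sets gave 0.40 there. FOXP1 had 10 other probe sets above the filter, which ran from -1.05 to -0.19 in high-Myc against low-Myc cells and from -0.12 to 0.33 in mid-Myc against low-Myc cells.

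**Figure D4:**
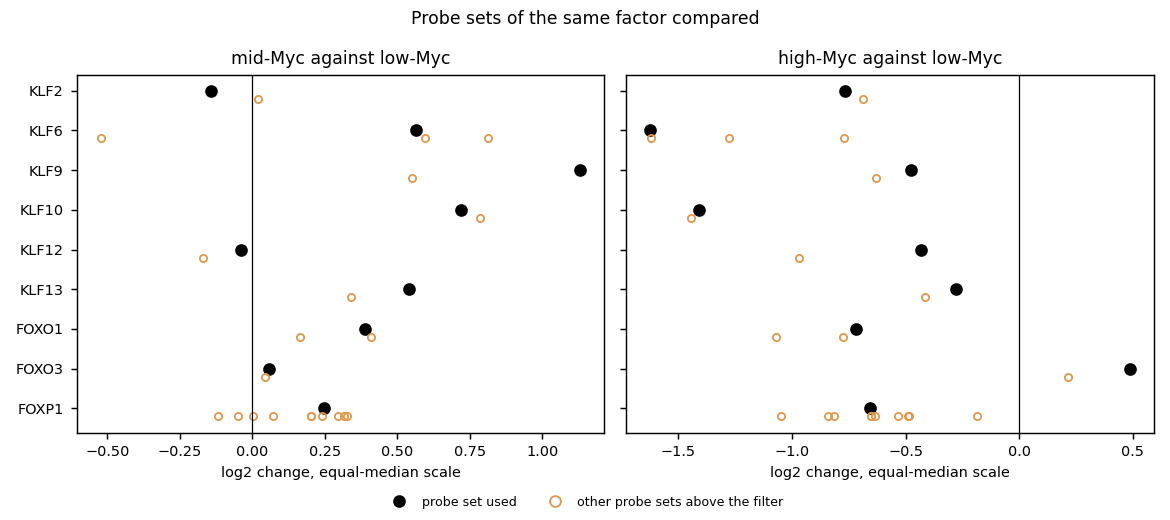
Equal-median log2 change (x axis) of every probe set above the filter, by factor (y axis), in mid-Myc against low-Myc cells (left) and high-Myc against low-Myc cells (right). Filled points are the probe sets used and open points the 21 others. At 24 hours all points of a factor lie on 1 side of 0, and at 1 hour a KLF6 probe set (-0.52), 2 FOXP1 probe sets (-0.12 and -0.048) and a KLF2 probe set (0.018) lie on the other side from the one used.

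For each factor the genes with the nearest pair of equal-median changes (1 hour and 24 hours, each against low-Myc cells, over the 3 groups of 2 arrays) were found among 8985 brighter genes (8986 for KLF12). The distance is in log2 units. KLF9 was nearest to DUSP4 (0.036), KLF11 (0.0845) and MAP3K8 (0.126), and KLF6 to CDKN1C (0.127), DUSP2 (0.146) and ING3 (0.149). KLF10 was nearest to SIDT1 (0.0367), LY9 (0.128) and SNN (0.172). The nearest gene to each of these 3 factors was farther off than the nearest gene to any of the other 6. FOXP1 was nearest to SSH2 (0.00091), GRIPAP1 and SYF2, FOXO1 to SMAD3 (0.0208), MIDN and HLA-DMA, and KLF13 to ITGB7 (0.0171), EDEM1 and B3GNT7. KLF2 was nearest to SEMA6A (0.0199), INPP5B and ITPR2, KLF12 to MYH11 (0.00344), SRBD1 and ATP2C1, and FOXO3 to PIDD1 (0.00725), FUBP1 and LLPH.

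The rest of the KLF and SP family was mixed. Of 14 other KLF and SP genes 9 were above the filter. On the equal-median scale 1 rose, 4 fell and 4 were not called in high-Myc against low-Myc cells, with a median of -0.24. Of all genes 37.7% rose and 26% fell there. KLF8 changed by -0.89 (SE 0.086, adjusted p = 5.37e-07), KLF7 by -0.88 (SE 0.069, adjusted p = 6.02e-08) and KLF16 by 0.27 (SE 0.087, adjusted p = 0.0147). Per cell 7 of the 9 rose and 0 fell, beside 90.8% and 2.53% of all genes. At 1 hour 3 rose and 0 fell on the equal-median scale, beside 25.7% and 3.39% of all genes. Under the 4 other settings 0 rose and 7 fell at 24 hours, and 2 or 3 rose and 1 fell at 1 hour. The medians and shares of all genes given above are the background for these lists. KLF11, or TIEG2, the closest relative of KLF10, had 234 and 237 in low-Myc cells, 494 and 452 in mid-Myc cells, and 162 and 164 in high-Myc cells. Its mid-Myc arrays were far above both other groups. It changed by 1.15 (SE 0.069, adjusted p = 1.54e-07) at 1 hour and by -0.39 (SE 0.069, adjusted p = 0.000171) at 24 hours, and SP3 changed by 0.63 (SE 0.064, adjusted p = 1.81e-05) at 1 hour.

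Among 18 other forkhead genes 11 were above the filter. On the equal-median scale 5 rose and 2 fell in high-Myc against low-Myc cells, beside 37.7% and 26% of all genes. Their median was 0.19, and between -0.017 and 0.091 under other scalings, where 3 or 4 rose and 2 or 3 fell. FOXM1, the forkhead factor that drives mitotic genes, changed by 0.88 (SE 0.12, adjusted p = 1.42e-05), and FOXK1, a glycolysis regulator, by 0.69 (SE 0.083, adjusted p = 5.07e-06). FOXN3, a checkpoint-linked repressor, changed by -1.03 (SE 0.055, adjusted p = 1.08e-09), and FOXO4, a further FOXO protein, by -0.56 (SE 0.079, adjusted p = 2.32e-05). FOXM1, FOXO4 and, above, KLF16 lay below 204.5 in every array, within the range of background. KLF8 exceeded 204.5 only in low-Myc replicate 1 (207), KLF11 was below it in high-Myc arrays and FOXK1 in low- and mid-Myc arrays. Per cell 10 of the 11 rose and 0 fell, near the 90.8% and 2.53% of all genes. At 1 hour 2 rose (FOXN3 by 0.22 and FOXN2 by 0.20) and 0 fell on the equal-median scale, beside 25.7% and 3.39% of all genes. Under the other scalings 0 rose and 0 or 1 fell there.

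Genes known in other systems as FOXO targets were mostly lower in share at 24 hours. Of 28 listed, 24 were above the filter. On the equal-median scale 18 fell and 3 rose in high-Myc against low-Myc cells, beside 26% and 37.7% of all genes. The median was -0.39, and the count of falls was between 20 and 21 under other scalings. TNFSF10, the death ligand TRAIL, changed by -1.70 (SE 0.08, adjusted p = 3.49e-10). TXNIP, an inhibitor of glucose uptake, had 6919.8 and 6942 in low-Myc cells, 6327 and 6302 in mid-Myc cells, and 1989 and 2041 in high-Myc cells, and changed by -1.64 (SE 0.038, adjusted p = 6.89e-13). CITED2, a co-factor that restrains hypoxia signalling, changed by -1.63 (SE 0.088, adjusted p = 1.27e-09), and MAP1LC3B, an autophagy protein, by -0.95 (SE 0.092, adjusted p = 5.49e-07). Per cell 19 of the 24 rose and 3 fell, beside 90.8% and 2.53% of all genes. The 3 were TXNIP (-0.85), TNFSF10 (-0.65) and CITED2 (-0.58). In high-Myc arrays TNFSF10 (75.3 and 68.9) and CITED2 (65.7 and 69.3) lie within the range of background, which limits the size of their changes.

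At 1 hour 11 of the 24 rose and 2 fell on the equal-median scale, beside 25.7% and 3.39% of all genes. With quantile normalization and cyclic loess these counts were 4 and 4, with centring on the tested genes 6 and 3, and as deposited 5 and 4, so the early direction of this list depends on the scaling. BCL2L11, which encodes the death activator BIM, had 309.5 and 329 in low-Myc cells, 1512 and 1560.1 in mid-Myc cells, and 216 and 231 in high-Myc cells. Its mid-Myc arrays stood far above both other groups. It changed by 2.42 (SE 0.066, adjusted p = 2.22e-10) in mid-Myc against low-Myc cells, and BCL6, the germinal centre repressor, with 46.9 and 50.9 in low-Myc cells, 95.0 and 105 in mid-Myc cells, and 34.1 and 40.1 in high-Myc cells, by 1.18 (SE 0.13, adjusted p = 3.15e-05). All BCL6 intensities lie within the range of background. Per cell the counts at 1 hour were 20 higher and 0 lower, beside 62.4% and 0.697% of all genes.

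**Figure D5:**
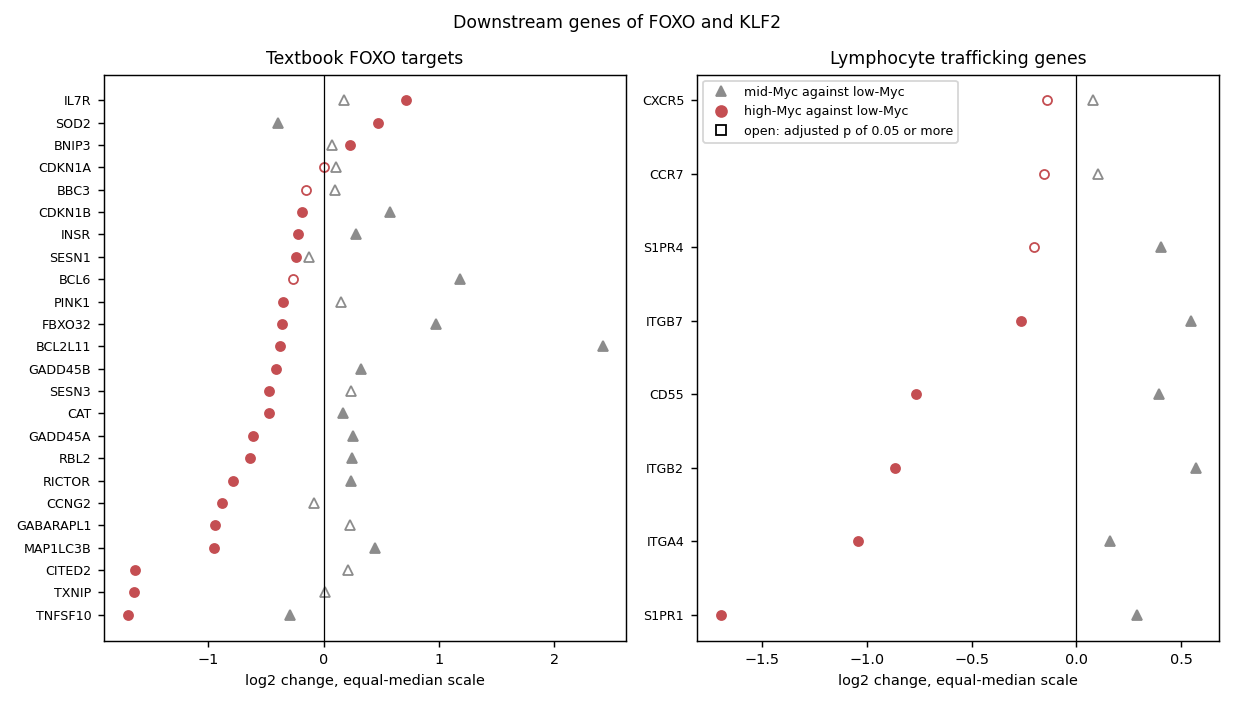
Equal-median log2 change (x axis) of 24 genes known as FOXO targets (left) and 8 lymphocyte trafficking genes (right). Triangles are mid-Myc against low-Myc cells, circles high-Myc against low-Myc cells, and open symbols have an adjusted p of 0.05 or more. TNFSF10, TXNIP, CITED2 and S1PR1 lie below -1.6 at 24 hours, and BCL2L11 lies highest at 1 hour.

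The homing and exit genes that KLF2 and FOXO1 sustain in mouse T cells were mostly lower in share at 24 hours. Of 9 listed 8 were above the filter. On the equal-median scale 5 fell and 0 rose in high-Myc against low-Myc cells, beside 26% and 37.7% of all genes. The median was -0.51, with 6 to 8 falls under other scalings. S1PR1, the receptor for exit from lymphoid organs, had 229 and 213 in low-Myc cells, 230.3 and 257 in mid-Myc cells, and 65.1 and 58.6 in high-Myc cells. The high-Myc arrays were far below both other groups. It changed by -1.70 (SE 0.09, adjusted p = 1.09e-09) on the equal-median scale and by -0.65 per cell (adjusted p = 3.59e-05). Its high-Myc intensities lie within the range of background, which limits the size of these changes. On the equal-median scale the integrin chains ITGA4 and ITGB2 changed by -1.04 (SE 0.047, adjusted p = 2.03e-10) and -0.87 (SE 0.071, adjusted p = 9.65e-08), and the complement regulator CD55 by -0.76 (SE 0.069, adjusted p = 2.56e-07). Per cell ITGB2 and CD55 were higher, by 0.22 (adjusted p = 0.00527) and 0.26 (adjusted p = 0.00224), and ITGA4 was not called (-0.06). ITGB2 in high-Myc arrays (117 and 115) lies within the range of background. At 1 hour 6 of the 8 rose and 0 fell on the equal-median scale, beside 25.7% and 3.39% of all genes. The count was 3 and 0 under each other scaling. ITGB2 was at 0.57 and ITGB7, another integrin chain, at 0.55. Per cell 6 rose and 1 fell at 24 hours, beside 90.8% and 2.53% of all genes, and 8 rose at 1 hour, beside 62.4%.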

How the data were processed

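RNA of P493-6 cells was measured on 6 single-colour Affymetrix arrays from 100 ng of total RNA, and ERCC RNAs had been added by cell number, as the labels' protocols state. The deposited values are linear intensities per probe set, which the authors made with MAS5 according to the submitters' processing notes; the MAS5 version and scaling target are not stated there. Of 49293 human probe sets 45278 carried 1 gene symbol, and only these were named. No detection calls were used, so dim values include background. The number of arrays limits the precision.

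Log2 intensities were put on the per-cell scale (robust loess through 100 ERCC probe sets, span 0.7, degree 1) and the equal-median scale. Genes with a mean above the 40th percentile of human probe sets were tested with limma 3.58.1 (R 4.3.3), with a variance trend, in 1 fit over 6 arrays without a replicate block, and SE values come from this fit. The fit was also run on simulated data in which few genes changed. In these data most genes changed per cell, and that run does not test such a setting. Replicate numbers did not pair the samples: deviations of same-numbered arrays correlated at 0.0022, -0.0034 and -0.0022 over genes. The members and gene lists were chosen with earlier results of these data known. All members are named; from each other list the text names the called genes with the largest equal-median changes, up to 4 at 24 hours and 2 at 1 hour. Alternatives were other scalings, filters, a pseudocount of 16, no trend, a replicate block, other probe sets or their mean, only the arrays compared, and leaving out each array. Promoters are RefSeq's (GRCh38.p14), and KLF10 has no window here.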

Additional observations from a re-analysis of the deposited data

How the results depend on the processing

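Of 27 changes (9 factors in 3 comparisons), 21 kept direction and side of the threshold on the per-cell scale under 14 alternatives, and 21 on the equal-median scale under 17, apart from other probe sets. KLF12 had 1 alternative fewer, since it is below the stricter filter. Member counts that moved by over 1.5 times were the higher calls per cell in high-Myc against mid-Myc cells, 4 with 1 ERCC factor per array against 2, and the lower call on the equal-median scale in mid-Myc against low-Myc cells (KLF2), which was 0 without a variance trend and with the mean over probe sets, and 0 to 1 when an array was left out. Changes of direction at 1 hour on the equal-median scale were FOXO3, at -0.015 to 0.13 when an array was left out (negative without low-Myc replicate 1), -0.0058 with quantile normalization, -0.059 with tested genes centred and -0.093 in deposited values, and, with other probe sets, KLF2 (0.018), FOXP1 (-0.12 and -0.048) and KLF6 (-0.52). Per cell, KLF2 at 1 hour was -0.012 to 0.044 when an array was left out (-0.012 without low-Myc replicate 2, -0.0029 without mid-Myc replicate 1), and other probe sets gave -0.35 for KLF6 and -0.014 for KLF12 at 1 hour and -0.33 for KLF12 at 24 hours, against low-Myc cells. In high-Myc against mid-Myc cells per cell, FOXP1 was 0.036 with 1 ERCC factor per array and 0.11, 0.30, 0.18, 0.058, 0.19 and 0.30 with other probe sets, KLF12 was -0.32 and KLF6 0.30. Other probe sets below the filter gave no value. With the replicate block the only call among the factors that changed was FOXO3 per cell at 1 hour (adjusted p = 0.0597), so 6 in place of 7 factors were higher there. FOXO3 per cell at 1 hour also lost its call under most other alternatives, and KLF12 on the equal-median scale under 3 of 16 at 24 hours against low-Myc cells. With the mean over probe sets, the 1-hour changes on the equal-median scale were 0.40 for KLF9, 0.23 for KLF6 and 0.17 for FOXO1, the last not called (adjusted p = 0.0918). KLF12 per cell at 24 hours was 0.78 and called with 1 ERCC factor per array. The cause was not tested. The dim factors KLF4, KLF12 and FOXO3 are limited by signal over background.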

Other observations

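A further 3 lists, described here by counts, hold genes that act on the FOXO and KLF proteins. Of 12 genes of the AKT pathway 8 were above the filter. On the equal-median scale 2 rose and 5 fell in high-Myc against low-Myc cells, beside 37.7% and 26% of all genes. The median was -0.28 (1 rose and 5 fell under other scalings). INPP5D, the phosphatase SHIP1, changed by -0.80 (SE 0.05, adjusted p = 5.93e-09), PIK3CB, a PI3K catalytic subunit, by 0.46 (SE 0.092, adjusted p = 0.00052), AKT1 by 0.36 (SE 0.13, adjusted p = 0.0312) and SGK1, a related kinase, by -0.36 (SE 0.14, adjusted p = 0.0407). At 1 hour 4 rose and 0 fell (0 or 1 rose under other scalings), beside 25.7% and 3.39% of all genes, with AKT1 at 0.53 and SGK1 at 0.53. PIK3CB, AKT1, SGK1 and, below, SKP2 stayed under an intensity of 204.5 in every array, which is within the range of background. Per cell 7 of the 8 rose and 0 fell at 24 hours, near the 90.8% and 2.53% of all genes.

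All 19 listed carriers and modifiers of FOXO proteins were tested. On the equal-median scale 13 rose and 4 fell in high-Myc against low-Myc cells (median 0.51), beside 37.7% and 26% of all genes. PRMT1, an arginine methyltransferase, changed by 1.97 (SE 0.058, adjusted p = 5.66e-12), CDK1 by 1.52 (SE 0.063, adjusted p = 1.08e-10), SKP2, a ubiquitin ligase subunit that targets FOXO1, by 1.32 (SE 0.12, adjusted p = 3.37e-07) and YWHAH, a 14-3-3 protein, by 1.19 (SE 0.052, adjusted p = 1.82e-10). CDK1 and SKP2 also serve cell division in their own right. At 1 hour 10 rose and 0 fell, beside 25.7% and 3.39% of all genes. With quantile normalization or cyclic loess 2 rose and 2 fell, centred on the tested genes 5 rose, and as deposited 2 rose. SKP2 changed by 0.90 and the deacetylase SIRT1 by 0.88 there. Of 8 co-repressor genes that KLF factors recruit, 6 were tested. At 24 hours 2 rose and 1 fell, beside 37.7% and 26% of all genes (2 rose and 2 or 3 fell under other scalings). SAP30 changed by 1.49 (SE 0.081, adjusted p = 1.31e-09), the deacetylase HDAC2 by 1.46 (SE 0.072, adjusted p = 5.58e-10) and the scaffold SIN3B by -0.49 (SE 0.07, adjusted p = 2.66e-05). At 1 hour 4 rose and 0 fell, beside 25.7% and 3.39% of all genes (1 or 3 rose and 0 or 1 fell under other scalings). SAP30 was at 0.49 and HDAC1 at 0.32. In low-Myc and mid-Myc arrays SAP30 lay below 204.5, within the range of background.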
